A study of Saccharomyces cerevisiae with 9 samples.

Results

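The heat shock chaperones and general stress genes of baker's yeast, Saccharomyces cerevisiae, were followed across 3 groups of iron-limited cultures. They are 33 genes chosen by name, and each was read by its probe set with the highest mean signal, out of 5656 genes named on the array. They were split by role into 17 chaperones and co-chaperones, 14 general stress genes and the 2 activators MSN2 and MSN4. All cultures lacked the chromosomal genes CTH1 and CTH2 and carried the plasmid pRS416 either empty (vector), with CTH1 or with CTH2, with 3 arrays in each group. Cth1 and Cth2 are zinc finger proteins that attach to AU-rich stretches of mRNAs and promote their decay when iron is scarce. Every culture grew for about 6 hours at 30 °C without uracil and with 100 µM of the iron chelator bathophenanthroline disulfonate (BPS), so no iron-replete culture and no strain with both chromosomal genes enters a comparison. The promoters on the plasmids are not given in the sources used here, and neither is whether each replicate was a separate transformant, so p-values measure the spread between these samples, which may be technical.

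Yeast answers heat and other insults along overlapping routes. The heat shock factor Hsf1 drives chaperones that fold, hold or disaggregate proteins, while Msn2 and Msn4 enter the nucleus when protein kinase A is low and switch on a broad set of protective genes, the general or environmental stress response. Some genes, among them HSP26, HSP104 and SSA4, answer to both routes, and HSP30 and HSP31 are grouped here with the general stress genes because they are not classical folding chaperones, not because Msn2 and Msn4 are their main activators. The comparison of chaperones with stress genes therefore sets overlapping regulons side by side.

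The values are MAS5 signals, an intensity summarised over the short probes of a probe set, and the authors had scaled every array to the same target, with median signals of 153 to 184. The plasmid genes followed the labels: CTH1 gave a signal of 231 to 592 with its plasmid and at most 14.3 elsewhere, and CTH2 gave 3389 to 4498 with its plasmid and at most 10.2 elsewhere. CTH1 replicate 2 was the least like the other arrays, with Pearson correlations of the log2 signal down to 0.895. CTH1 replicate 3 was low in short mRNAs: the median log2 deviation of genes coding for 400 nucleotides or less, minus that of genes above 900 nucleotides, was -0.74. The same value lay between -0.05 and 0.29 on the other arrays. Of the 33 members, 32 were bright enough to be tested, and the transcriptional repressor gene XBP1 was not. Differences were tested with limma on the log2 signal over all 4242 tested genes, and a gene was called at a Benjamini-Hochberg adjusted p under 0.05.

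With CTH2, several general stress genes had higher mRNA signals than with the empty plasmid, while the chaperones as a group did not. RTC3 was the only member called, and HSP31, MSC1, HSP12 and GRE3 had differences in the same direction that did not pass over all genes. The J-domain co-chaperone gene YDJ1 had the most negative value among the chaperones. With CTH1, no member was called.

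RTC3 (YHR087W), a small stress-induced protein of poorly known function, had a signal of 171, 222 and 235 on the 3 vector arrays, 299, 311 and 255 on the CTH1 arrays and 425, 523 and 455 on the CTH2 arrays. The 3 groups did not overlap, with vector lowest and CTH2 highest. RTC3 rose 2.25-fold with CTH2, a log2 difference of 1.17 (SE 0.21, limma adjusted p = 0.0391). In a comparison where limma called 13 genes, CTH2 itself among them and 0.306% of those tested, RTC3 was 1 of 32 tested members called. The call was lost, with an adjusted p of 0.0906 to 0.276, when any 1 of the vector or CTH2 arrays was left out, and also without CTH1 replicate 1 (0.0644), while the difference stayed between 1.03 and 1.26. It was also lost with the arrays scaled to a common median (adjusted p = 0.0517) or quantile normalized (0.0512), and it held in 11 of 22 alternatives. In an extract of a whole culture, more RNA per cell and more cells that express a gene cannot be told apart.

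HSP31 (YDR533C), a member of the DJ-1 family that detoxifies methylglyoxal, had a signal of 1494, 2247 and 2464 with vector, 2672, 1507 and 2863 with CTH1 and 4913, 4240 and 5275 with CTH2. Every CTH2 array lay above every array of the other groups, and CTH1 overlapped vector. Its log2 difference of 1.24 between CTH2 and vector was the largest among the members (SE 0.27), but with a limma adjusted p of 0.0865 it was not called. It passed in 3 of 22 alternatives, namely with array weights, with only the compared groups in the fit and without CTH1 replicate 2.

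HSP12 (YFL014W), a small protein that settles on membranes under stress and a standard reporter of Msn2 and Msn4 activity, had 4351, 5803 and 4073 with vector, 6320, 7181 and 4541 with CTH1 and 8384, 7657 and 10646 with CTH2. The CTH2 arrays again lay above all others, and the CTH1 arrays overlapped the vector arrays. The log2 difference between CTH2 and vector was 0.91 (SE 0.23, limma adjusted p = 0.135), and it was called in 3 of 22 alternatives. MSC1 (YML128C), whose mutant alters meiotic recombination, had 316, 441 and 298 with vector, 465, 421 and 515 with CTH1 and 663, 742 and 587 with CTH2. Its CTH2 arrays were above all others too, with a log2 difference of 0.93 from vector (SE 0.21, limma adjusted p = 0.107).

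GRE3 (YHR104W), an aldose reductase that also acts on methylglyoxal, had 602, 462 and 500 with vector, 661, 998 and 827 with CTH1 and 744, 867 and 927 with CTH2. Both plasmid groups lay above vector and overlapped each other. The log2 difference from vector was 0.66 with CTH1 (SE 0.21, limma adjusted p = 0.575) and 0.70 with CTH2 (SE 0.21, limma adjusted p = 0.217). PNC1 (YGL037C), the nicotinamidase of NAD salvage, showed the same arrangement in a narrower range. Its signals were 3580, 3783 and 3821 with vector, 4392, 5209 and 4285 with CTH1 and 4656, 4323 and 5469 with CTH2, and the log2 differences were 0.31 (SE 0.18) and 0.36 (SE 0.18), with limma adjusted p of 0.765 and 0.553. The 2 comparisons share the vector arrays, so their likeness is no separate evidence.

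**Figure D1:**
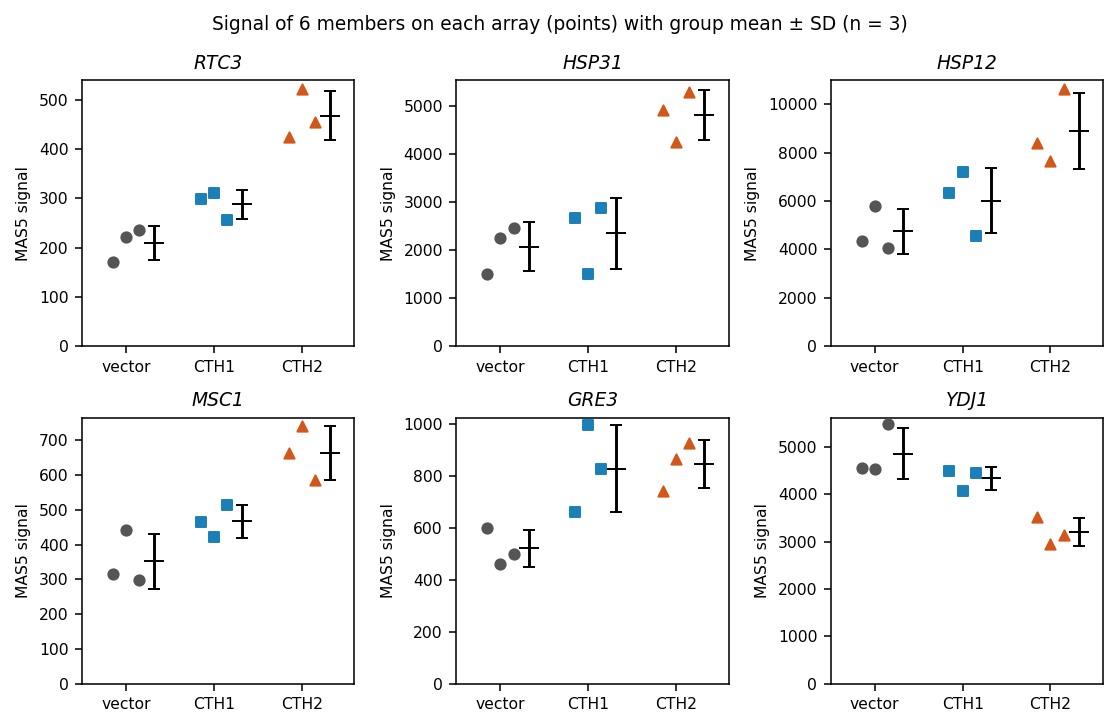
MAS5 signal (linear axis from 0) of RTC3, HSP31, HSP12, MSC1, GRE3 and YDJ1 on each of the 3 arrays per group, with the group mean ± SD (n = 3) as a bar beside the points. RTC3 runs from 171 to 235 with vector and from 425 to 523 with CTH2, while YDJ1 runs from 4538 to 5490 with vector and from 2950 to 3518 with CTH2.

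The rest of the general stress genes were mixed. SPI1, a cell wall protein induced at low growth rate and by weak acids, had a signal of 714 ± 230 with vector, 819 ± 206 with CTH1 and 1087 ± 70.6 with CTH2 (SD, n = 3). Its CTH2 arrays lay above all others, with a log2 difference from vector of 0.66 (SE 0.27, limma adjusted p = 0.48) that was 0.38 without vector replicate 1. TMA10, which is found with ribosomes, overlapped between the groups, and its log2 difference of 0.45 between CTH2 and vector (SE 0.29) was 0.11 without CTH2 replicate 3, which was at 954 against 439 and 512. GRE1, a hydrophilin induced by drying and osmotic stress, was dim throughout, at 115 to 204. XBP1 was dimmer still, at 34.4 to 48.0 with vector, 58.5 to 73.7 with CTH1 and 55.2 to 74.2 with CTH2, so that both plasmid groups lay above vector near the floor of 43.2 put under all signals. With no filter on dim genes its log2 differences were 0.59 for CTH1 (limma adjusted p = 0.629) and 0.47 for CTH2 (limma adjusted p = 0.284).

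Not all targets of Msn2 and Msn4 were higher with CTH2. DDR2, a multistress gene that is a common reporter of the pathway, had 2854 ± 574 with CTH2 against 3916 ± 752 with vector (SD, n = 3), a log2 difference of -0.46 (SE 0.35, limma adjusted p = 0.74). With CTH1, DDR2 was at 1372 in replicate 3 and at 3799 and 3872 on the other arrays, and its log2 difference of -0.51 became -0.01 without that replicate. HOR7, a small protein induced by high osmolarity, had 10706, 12715 and 14966 with vector, 10341, 9289 and 8291 with CTH1 and 13800, 9842 and 15310 with CTH2. The CTH1 arrays lay just below the vector arrays (log2 difference -0.45, SE 0.21, limma adjusted p = 0.719), and the CTH2 arrays overlapped them. DDR2 and HOR7 are among the shortest members, with coding lengths of 186 and 180 nucleotides, and with coding length corrected HOR7 differed by -0.15 between CTH1 and vector. DDR48, whose protein responds to DNA damage and heat, differed by -0.10 with CTH2 (SE 0.22) and 0.06 with CTH1 (SE 0.22), and its dimmer probe set overlapped between all groups as well. HSP30, which restrains the plasma membrane proton pump, had 357 ± 97.6 with vector, against 427 ± 130 with CTH1 and 289 ± 47.5 with CTH2 (SD, n = 3).

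The genes of the activators themselves were not called. MSN2 had a signal of 355, 590 and 522 with vector, 352, 395 and 422 with CTH1 and 486, 430 and 530 with CTH2. The groups overlapped, except that CTH2 lay above CTH1. Its log2 difference was 0.01 for CTH2 against vector (SE 0.23, limma adjusted p = 0.996) and -0.30 for CTH1 (SE 0.23, limma adjusted p = 0.829). MSN4, the partly redundant partner whose own gene is stress-induced, had 47.5, 154 and 117 with vector, 96.8, 129 and 122 with CTH1 and 167, 126 and 188 with CTH2. The groups overlapped, and the log2 difference of MSN4 between CTH2 and vector, 0.73 (SE 0.37, limma adjusted p = 0.577), was 0.23 without vector replicate 1, which lay near the floor. MSN4 passed the filter on dim genes, at a signal of 120, only through its CTH2 arrays. Its mean signal was 106 with vector, 116 with CTH1 and 160 with CTH2, so its differences carry little weight. The values of MSN2 and MSN4 are mRNA levels, and the location of both proteins, on which their activity depends, was not measured.

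**Figure D2:**
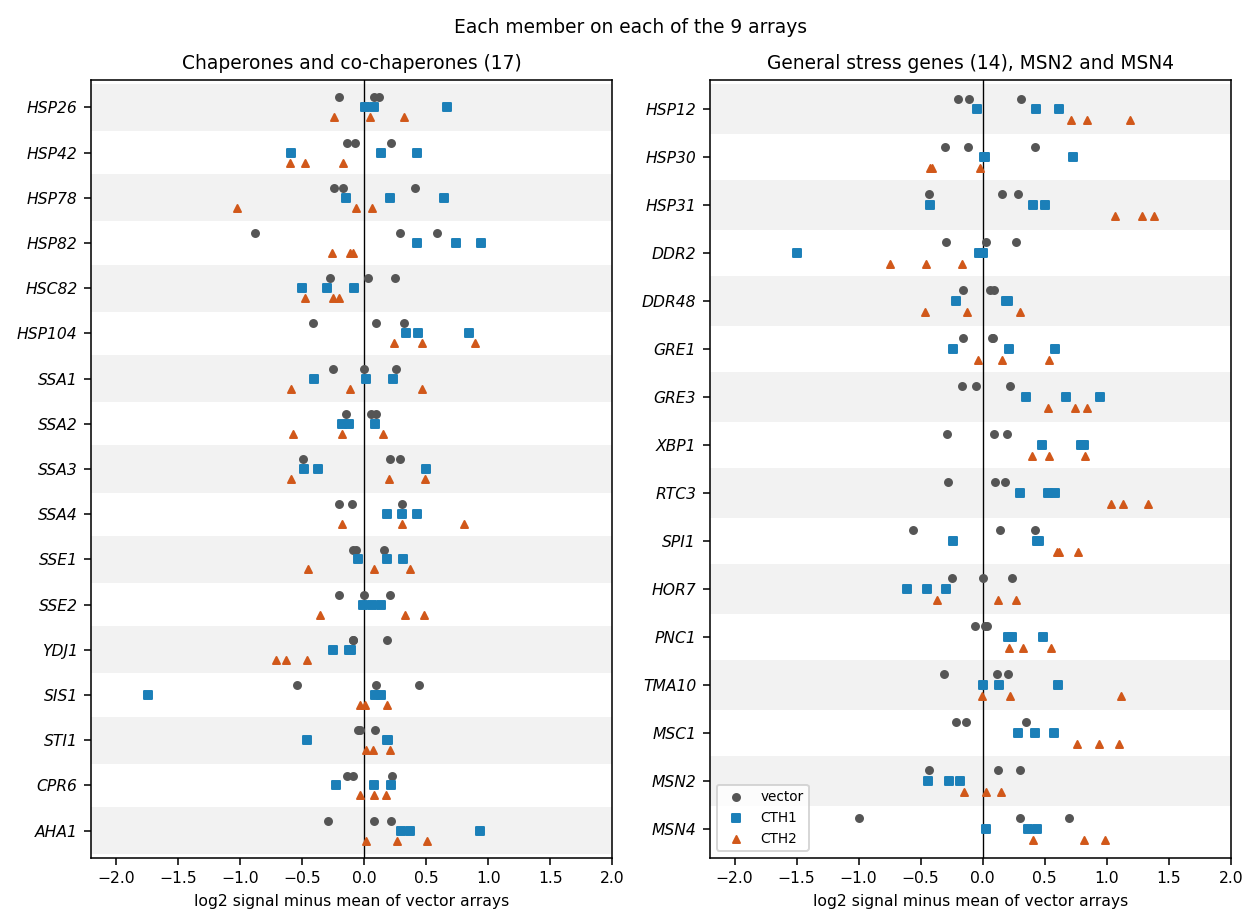
Log2 signal of all 33 members on each of the 9 arrays, minus the mean of the 3 vector arrays (horizontal axis, log2 units), with chaperones on the left and general stress genes and activators on the right. For HSP31, RTC3, MSC1 and HSP12 all CTH2 points lie to the right of every other point, while most chaperones overlap between the groups.

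Among the chaperones, the Hsp40 gene YDJ1 (YNL064C), which delivers clients to Hsp70 and stimulates its ATPase, stood lowest with CTH2. Its signal was 4557, 4538 and 5490 with vector, 4500, 4063 and 4453 with CTH1 and 3518, 2950 and 3130 with CTH2. The 3 groups did not overlap, though the CTH1 arrays were only narrowly below vector. The log2 difference was -0.60 for CTH2 against vector (SE 0.17, limma adjusted p = 0.191) and -0.16 for CTH1 (SE 0.17, limma adjusted p = 0.867), and no alternative called either. The other Hsp40 gene, SIS1, differed by 0.05 with CTH2 (SE 0.42), and with CTH1 it was at 422 in replicate 2 against 1500 and 1553 on the other arrays, so that its log2 difference from vector was -0.51 with that array and 0.11 without it.

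The Hsp90 genes HSP82 and HSC82 encode near-identical proteins, the first strongly heat-induced and the second abundant at all times. HSP82 had 2871, 3525 and 1275 with vector, 3906, 4501 and 3141 with CTH1 and 1963, 2204 and 2161 with CTH2. CTH1 was above CTH2 on every array (log2 difference of CTH2 minus CTH1 -0.85, SE 0.31, limma adjusted p = 0.512), and the scattered vector arrays overlapped both. HSC82 had 8623, 10650 and 12367 with vector, 9839, 7372 and 8483 with CTH1 and 8760, 7488 and 9060 with CTH2, and all groups overlapped. The HSP82 probe set carries a suffix that marks a compromise in probe selection, and a further set assigned to both genes gave 4731 to 6149 with vector, 3981 to 5493 with CTH1 and 4772 to 5304 with CTH2, also overlapping. Of the Hsp90 helpers, the ATPase activator AHA1 had 1005, 909 and 704 with vector, 1062, 1651 and 1117 with CTH1 and 1038, 874 and 1223 with CTH2. Its CTH1 arrays lay above vector (log2 difference 0.54, SE 0.23, limma adjusted p = 0.712), the lowest of them by a small margin. The Hsp70-Hsp90 adaptor STI1 and the cyclophilin CPR6 varied little, with log2 differences from vector of -0.03 to 0.10 over both plasmids.

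The Hsp70 genes did not separate. SSA1 had 15336, 18255 and 21782 with vector, 21450, 18474 and 13823 with CTH1 and 16846, 12125 and 25259 with CTH2. SSA2 had 13598, 16127 and 15652 with vector, 16024, 13881 and 13306 with CTH1 and 13290, 10157 and 16722 with CTH2. These constitutive Hsp70 genes are close in sequence, the SSA1 set also carries such a suffix, and on the CTH2 arrays both were lowest in replicate 2 and highest in replicate 3. The stress-induced SSA3 had 340, 197 and 321 with vector, 394, 199 and 214 with CTH1 and 320, 390 and 185 with CTH2, with as much scatter inside each group as between them. SSA4, the Hsp70 gene most tied to heat shock, had 359, 476 and 335 with vector, 477, 519 and 437 with CTH1 and 341, 476 and 673 with CTH2, and its log2 differences from vector were 0.31 for both plasmids (SE 0.26). The CTH2 value was 0.06 without CTH2 replicate 3, the array at 673, and 0.55 without CTH2 replicate 1. The exchange factors SSE1 and SSE2, of the Hsp110 family, had differences of -0.00325 and 0.15 with CTH2 (SE 0.23 for each).

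None of the disaggregases and small heat shock proteins was called. HSP104, which pulls proteins out of aggregates in the cytosol, had 578, 675 and 406 with vector, 682, 730 and 973 with CTH1 and 641, 749 and 1003 with CTH2. CTH1 lay just above vector and CTH2 overlapped it, with log2 differences of 0.54 (SE 0.25, limma adjusted p = 0.719) and 0.53 (SE 0.25, limma adjusted p = 0.544). Its mitochondrial counterpart HSP78 had 451 ± 118 with vector, 533 ± 147 with CTH1 and 366 ± 131 with CTH2 (SD, n = 3). HSP42, the small heat shock protein active in unstressed cells, had 700, 854 and 669 with vector, 810, 490 and 990 with CTH1 and 528, 655 and 488 with CTH2. The CTH2 arrays lay just below vector (log2 difference -0.42, SE 0.26, limma adjusted p = 0.659). HSP26, the small heat shock protein strongly induced on heating and in stationary phase, differed by 0.04 with CTH2 (SE 0.22) and 0.25 with CTH1 (SE 0.22), so the stress genes that were high with CTH2 did not include this one.

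**Figure D3:**
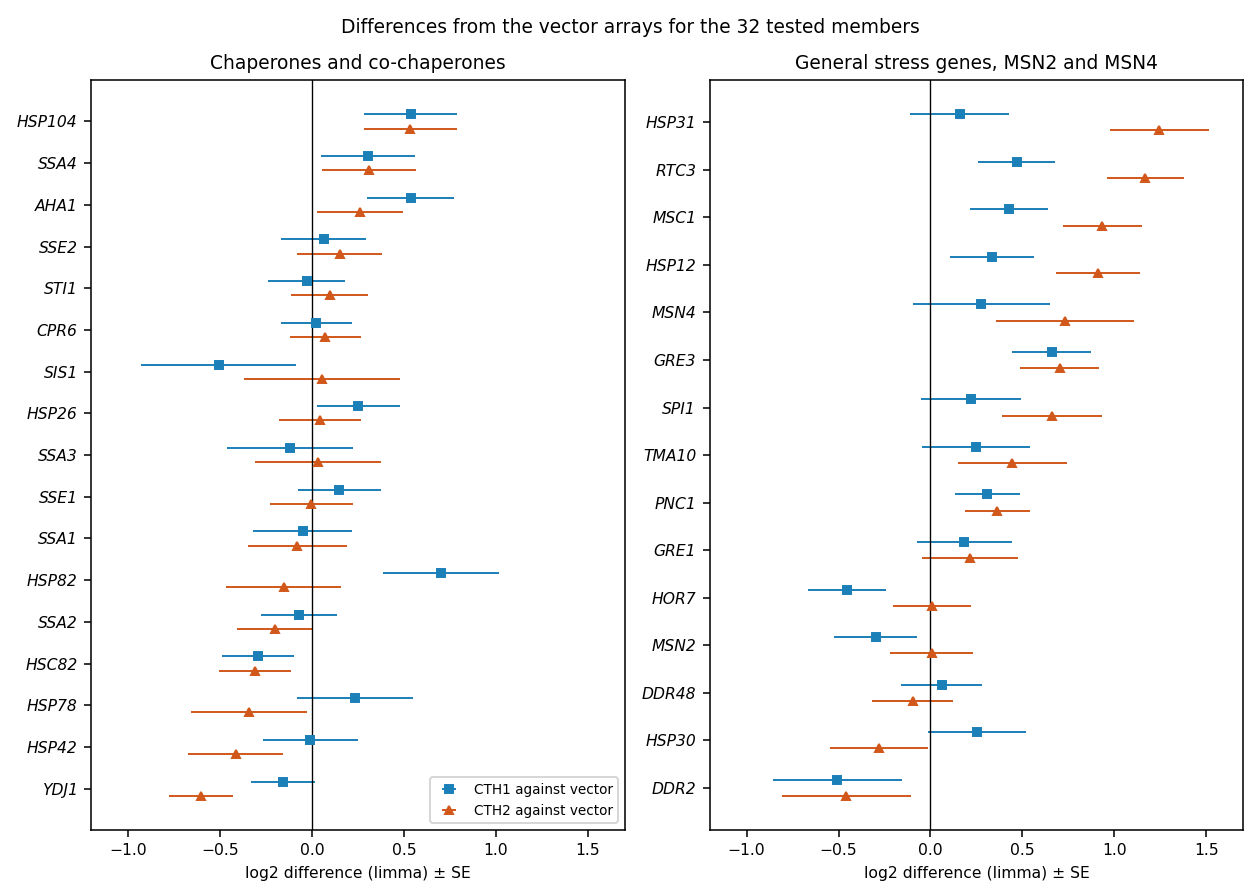
Log2 difference from the vector arrays (horizontal axis) with its SE from limma for the 32 tested members, with squares for CTH1 and triangles for CTH2, ordered by the CTH2 value within each panel. The CTH2 values run from -0.60 for YDJ1 to 0.53 for HSP104 among the chaperones and from -0.46 for DDR2 to 1.24 for HSP31 on the right.

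Set side by side, the 17 chaperones had a median log2 difference of 0.03 between CTH2 and vector, with 9 values above 0 and 8 below, and the 13 tested general stress genes had a median of 0.45, with 10 above 0 and 3 below. Over all tested genes the median was 0.06 and 58.0% were above 0. The 3 CTH2 arrays lay wholly above the 3 vector arrays for 7 of the 13 stress genes and for none of the 17 chaperones, where this held for 9.01% of all genes, and wholly below for 0 stress genes and for the chaperones YDJ1 and HSP42, where the share of all genes was 7.38%. The stress genes with separate arrays were RTC3, HSP31, MSC1, HSP12, GRE3, SPI1 and PNC1. No test was made over the lists, since the members were chosen with earlier results known. Scaling the arrays to a common median moved the median over all genes to -0.07, a shift of -0.12, and that of the chaperones to -0.09. Over the alternatives that left no single array out, this scaling among them, the stress gene median ran from 0.29 to 0.55. The stress gene median was 0.27 without CTH2 replicate 3 and 0.67 without CTH2 replicate 1.

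On single arrays, the median deviation of the general stress genes from their mean over all arrays minus that of the chaperones was -0.22, -0.21 and -0.16 log2 units with vector, -0.13, 0.23 and -0.33 with CTH1 and 0.19, 0.05 and 0.25 with CTH2. The CTH2 arrays were thus above the vector arrays by this measure, and the CTH1 arrays ran from below all vector arrays to the level of CTH2. The CTH1 array lowest here, replicate 3, is the one low in short mRNAs, and 5 of the 14 stress genes (HSP12, DDR2, RTC3, HOR7 and TMA10) have coding lengths of 336 nucleotides or less. The arrays highest here, CTH2 replicate 3 and CTH1 replicate 2, were also those highest in short mRNAs, by 0.29 and 0.18 over long ones. Vector replicates 1 and 3 were higher in short mRNAs too, by 0.14 each, yet low by this measure. The part of short mRNAs in this measure was not tested. With coding length corrected, the CTH2 values against vector were 1.26 for RTC3 and 1.00 for HSP12, each called by limma (adjusted p = 0.0236 and 0.0384), and the CTH1 values were 0.72 and 0.59, not called (limma adjusted p = 0.597 for each).

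With CTH1 the list medians were 0.02 for chaperones and 0.25 for general stress genes, against 0.06 over all genes. Of the general stress genes 11 were above 0 and 2 below, and of the chaperones 9 and 8. Over all genes 58.1% were above 0. This comparison shares the vector arrays with that of CTH2. The stress gene median was 0.11 without vector replicate 1, and with 1 array left out the chaperone median ran from -0.0052 without CTH1 replicate 1 to 0.11 without CTH1 replicate 2. Limma called 0 of 4242 genes (0%). The CTH1 gene itself lay under the floor without its plasmid and fell below the filter on dim genes, so it was not tested in any comparison. At an unadjusted p under 0.05 limma found 4 members higher, GRE3, AHA1, RTC3 and HSP82 (3.68% of all genes), and 0 lower (3.18%). The CTH1 arrays lay above vector for 3 stress genes and 2 chaperones, where this held for 6.67% of all genes, and below for 1 of each, where the share was 3.54%. Between CTH2 and CTH1 directly, limma called 1 gene of those tested (0.0236%), CTH2 itself, and 0 members. Arrays of CTH2 lay wholly above CTH1 for 6 members, where this held for 6.15% of all genes, and wholly below for 3, where the share was 7.47%. At an unadjusted p under 0.05 the CTH2 arrays had 5 members higher, HSP31, RTC3, HSP12, MSC1 and HOR7 (3.91% of all genes), and 2 lower, HSP82 and YDJ1 (3.75%). The HSP82 value for CTH1 against vector, 0.70 (SE 0.31), was 0.26 without vector replicate 3. Between CTH2 and CTH1, HSP31 had the largest difference among the members, 1.08 (SE 0.27, limma adjusted p = 0.272).

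**Figure D4:**
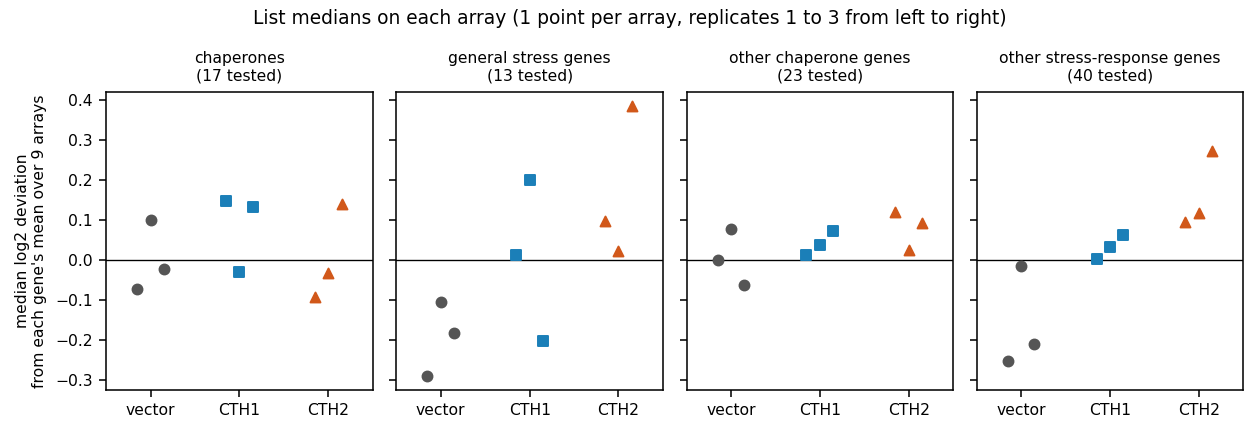
Median log2 deviation from each gene's mean over the 9 arrays (vertical axis), 1 point per array, for the tested chaperones, general stress genes, other chaperone genes and other stress-response genes. The general stress genes run from -0.29 to -0.10 on the vector arrays and from 0.02 to 0.39 on the CTH2 arrays, while the chaperones overlap between all groups.

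Further genes of the same pathways were counted from lists outside the 33. Of 49 further stress-response genes 40 were tested, and with CTH2 limma called none over all genes. Their median log2 difference from vector was 0.37, with 31 above 0 and 9 below, and at an unadjusted p under 0.05 there were 13 higher and 2 lower, where 4.86% and 4.55% of all genes reached this. Those with the smallest p, named after their values were seen, were the hexokinase HXK1 (1.05, SE 0.20, limma adjusted p = 0.059), the mitochondrial outer membrane protein OM45 (0.91, SE 0.20), SOL4 (1.03, SE 0.24), a phosphogluconolactonase of the pentose phosphate pathway, and, on the lower side, the vacuolar protease PEP4 (-0.81, SE 0.18). Of 31 other chaperone genes 23 were tested, with a median of 0.08, 1 higher and 0 lower at an unadjusted p under 0.05, and none called by limma. The CTH2 arrays lay wholly above vector for 4 of these 23 and wholly below for 2, where 9.01% and 7.38% of all genes did. For the 40 stress-response genes the counts were 16 and 3. Of 25 regulators, including HSF1, protein kinase A genes and RIM15, 20 were tested, with a median of 0.03, and limma called none, nor did any reach an unadjusted p under 0.05. With CTH1 the 40 further stress-response genes had a median of 0.19 against the same vector arrays, with 29 above 0 and 11 below. The CTH1 arrays lay wholly above vector for 7 of them and wholly below for 1, where 6.67% and 3.54% of all genes did. The 23 other chaperone genes had a median of 0.08 with CTH1, with 15 above 0 and 8 below.

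Growth-related genes and RNA controls were read on the same arrays. The median deviation of 21 genes for ribosome synthesis and transcription was 0.06, 0.04 and 0.15 with vector, 0.02, -0.11 and 0.08 with CTH1 and 0.25, 0.09 and -0.19 with CTH2, so the CTH2 arrays lay on both sides of the vector arrays. The general stress genes had medians of -0.29, -0.10 and -0.18 with vector, 0.01, 0.20 and -0.20 with CTH1 and 0.10, 0.02 and 0.39 with CTH2. Of 10 ribosomal RNA probe sets, 3 had all CTH2 arrays below all vector arrays and 7 overlapped. The widest gap was in a 25S set, at 367 to 1010 with CTH2, 3349 to 4649 with vector and 884 to 6588 with CTH1. The ratio of 3′ to 5′ ACT1 signal, a measure of RNA integrity, was 1.20 to 1.40 with CTH2, inside the vector range of 1.17 to 1.64. With CTH1 this ratio was 1.30, 0.907 and 1.28, so that replicate 2 lay below every vector array. The same ratio for SPT15 was more uneven, at 4.70, 1.04 and 1.84 with vector and 2.80, 2.70 and 1.56 with CTH2. With CTH1 the SPT15 ratio was 3.43, 3.23 and 3.00. The part of the ribosomal RNA signals and of RNA integrity in the stress gene values was not tested.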

How the data were processed

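RNA from 9 cultures was hybridised to Affymetrix Yeast Genome S98 arrays, and the deposited values are linear intensity values, 1 for each probe set and array, that the authors computed with MAS5 according to the submitters' processing notes, which name no version. Probe sets with 1 gene in the platform annotation (6504 of 9335) were matched by gene number to the RefSeq annotation of assembly R64, which was used for names and coding lengths. The 33 members and all gene lists were chosen with earlier results of these data known. A floor was set at the 10th percentile of the named probe sets (signal 43.2) before taking log2. The 4242 genes tested had a mean above the 25th percentile of gene means (signal 120), and 0.0445% of their values were at the floor. All arrays entered 1 limma model (version 3.58.1, R 4.3.3) of the 3 groups, without covariates, using eBayes with its trend option. The procedure was run on data simulated with independent noise for each gene and array. Those data lack the deviations that some arrays here share, so the run cannot show how calls hold under them. Arrays give no read depth, and their number limits the precision. Every array was printed for members called, for the 5 largest differences each way without overlap from vector, for MSN2 and MSN4 and for 3 paralog pairs. The 22 alternatives cover scaling, floor, filter, probe sets, coding length, array weights, samples in the fit and each array left out. Promoter motifs and protein identity, planned as descriptions, were not analysed here.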

Additional observations from a re-analysis of the deposited data

How the results depend on the processing

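Over 22 alternatives, of which a lower filter on dim genes was chosen after seeing the data, no member was called for CTH1 against vector or CTH2 against CTH1. For CTH2 against vector, where RTC3 was called with all arrays, the count of members called was 0 with arrays scaled to a common median, with no filter on dim genes or with the replicate block, 2 with only the compared groups in the fit or with coding length corrected, 4 with array weights (RTC3, HSP31, HSP12 and MSC1), and 0 to 2 with 1 array left out. The count over all genes, 13, became 21, 2, 1, 22, 20 and 80 in that order, and 1 to 27 with 1 array left out. Same-numbered arrays did not vary together, with correlations of their deviations from the group means of -0.583 to 0.221, so the numbers gave no sign of a pairing. Some arrays of different groups and numbers did share deviations, with correlations up to 0.547, for CTH1 replicate 2 and CTH2 replicate 3. The lowest such value was -0.536, for CTH1 replicate 2 and CTH2 replicate 1. Under the replicate block RTC3 kept its difference of 1.17 with a limma adjusted p of 0.117. The median of the chaperones between CTH2 and vector became -0.088 with the common median, and that of the general stress genes ran from 0.27 to 0.67 with 1 array left out. Between CTH2 and CTH1, the chaperone median of -0.03 became -0.14 with array weights and ran from -0.24 to -0.00098 with 1 array left out, and the stress gene median of 0.20 became 0.0204 with coding length corrected and ran from -0.0251 to 0.405. The cause was not tested. Of 96 member differences, 54 kept 1 sign under every alternative, and none that was called in any fit changed sign.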

Other observations

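The spread between replicates of 1 group was uneven over the 33 genes. The highest signal was more than 2 times the lowest for 3 of them among the CTH1 arrays, 4 among the CTH2 arrays and 2 among the vector arrays, and the median SD of the log2 signal was 0.272, 0.242 and 0.261. The widest spreads were 3.68-fold for SIS1 with CTH1, 3.24-fold for MSN4 with vector, 2.82-fold for DDR2 with CTH1 and 2.77-fold for HSP82 with vector. For each of these 4 genes 1 array was low. These genes were picked after their values were seen.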
